A study of Homo sapiens with 4 samples.

Results

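The 10 genes described here encode cell surface death receptors, the decoys that compete with them for ligand, and the complex that activates caspase-8: TNFRSF10A, TNFRSF10B, TNFRSF10D, TNFRSF6B, TNFRSF1A, TNFRSF12A, FAS, FADD, CASP8 and CFLAR. They were chosen by name and found by Ensembl ID, 10 of the 60617 gene IDs of the series, 27829 of them read in 1 or more libraries. The libraries are polyadenylated RNA of T24 and 5637, established lines from human bladder carcinomas, grown in RPMI medium with fetal bovine serum. Each line gave 1 library of untreated cells and 1 library of cells given protodioscin, a steroidal saponin of plants, for 6 h, the dose being 60 µM for T24 and 70 µM for 5637. The treatment protocol writes these doses in millimolar and the sample titles in micromolar, which is the unit used here. The controls are labelled untreated, with no vehicle named. With 1 library per group, no value within a line has a replicate error, and the dose differs along with the line.

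Death receptors of the tumour necrosis factor (TNF) receptor superfamily bind trimeric ligands outside the cell and, through a death domain inside it, gather the adaptor FADD. FADD recruits procaspase-8, which becomes active when its copies are brought together, while c-FLIP, the product of CFLAR, takes the place of caspase-8 in the chain and limits this step. Decoy receptors bind the same ligands without passing on a death signal. In epithelial tumours, these proteins help to set how cells respond to the ligands TRAIL and FAS ligand, and many lines carry the receptors without dying from them unless c-FLIP or other inhibitors are low.

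All 10 genes were above 1 FPKM (fragments counted per unit of transcript length and of library size) in all 4 libraries. The most abundant in each library was TNFRSF12A, followed by TNFRSF1A. With treatment, 1 gene, the decoy TNFRSF6B, differed by 0.5 or more on the log2(FPKM + 1) scale, and it was lower in both lines. Its exons lie wholly inside those of a read-through gene. The others differed between treated and untreated cells by -0.31 to 0.13 in T24 and by -0.20 to 0.098 in 5637. Between the untreated libraries of the lines, 4 genes differed by 0.5 or more: FAS and TNFRSF12A were higher in T24, and TNFRSF10A and TNFRSF10B in 5637. The share of all genes that differed by 0.5 or more between these libraries was not computed, so this count cannot be judged against a background.

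Sequences are shown first for TNFRSF6B, because its value depends on how reads are divided between overlapping transcripts. TNFRSF6B (ENSG00000243509, chromosome 20, 63696651 to 63698684 on the plus strand of GRCh38) has 1141 exonic bases in GENCODE 29, and 1141 of them (100%) also lie in exons of the read-through gene RTEL1-TNFRSF6B (ENSG00000026036, 63659300 to 63698684), which begins in the DNA helicase gene RTEL1. The spliced read-through transcript joins base 63695854 of an RTEL1 exon to base 63696760, and from there to their ends both transcripts have the same 1032 bases. The 15 bases before and the 15 bases after that point are given below, with the shared part in capitals, for the read-through and for the own transcript of TNFRSF6B. A read separates the spliced read-through from TNFRSF6B only if it crosses this point or reaches further upstream.

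Read-through: ctggccagagccccaCAAGGACCATGAGGG

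TNFRSF6B: ctctccctgctccagCAAGGACCATGAGGG

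RefSeq (GRCh38.p14) promoter windows, 250 bases before to 50 after a start, were matched for 6 of the 10 genes, with 13 windows in all. The window of TNFRSF6B is shown because this gene had the largest difference with treatment, and the first window of FAS because this gene had the largest difference between the lines. Capitals mark the GC box, searched as GGGCGG, and in FAS also an AP-1 site, searched as TGANTCA, each on both strands. The TNFRSF6B window lies at chr20:63696402-63696701 and that of FAS at chr10:88990548-88990847, both on the plus strand.

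TNFRSF6B: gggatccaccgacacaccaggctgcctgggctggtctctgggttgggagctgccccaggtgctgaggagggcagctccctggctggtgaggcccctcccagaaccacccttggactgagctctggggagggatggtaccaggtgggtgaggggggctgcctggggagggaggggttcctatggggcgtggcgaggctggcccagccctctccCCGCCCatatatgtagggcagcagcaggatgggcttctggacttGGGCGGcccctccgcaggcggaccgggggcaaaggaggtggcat

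FAS: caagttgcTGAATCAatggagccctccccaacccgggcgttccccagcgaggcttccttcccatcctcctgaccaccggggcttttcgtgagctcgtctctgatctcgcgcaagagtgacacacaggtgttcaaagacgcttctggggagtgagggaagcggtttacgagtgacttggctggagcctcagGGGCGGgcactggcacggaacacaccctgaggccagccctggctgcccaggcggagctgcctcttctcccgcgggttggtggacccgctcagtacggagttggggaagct

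The GC box was found in 8 of the 13 windows and in 45.0% of the 35116 windows of the same length in the table. The AP-1 site was found in 5 of the 13, in windows of FAS, FADD, CASP8 and CFLAR, and in 7.71% of all windows. The TATA box TATAAA was in 1 window, the second of CASP8, and in 11.5% of all. The ETS core CCGGAA was in 1 window, that of FADD, and in 17.2% of all. The E-box CACGTG was in none of the 13 and in 7.26% of all. Some of these windows overlap or belong to 1 gene, and a match of letters is not a bound site.

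TNFRSF6B encodes decoy receptor 3, a secreted protein that binds FAS ligand, LIGHT and TL1A. Untreated T24 had 13.1 FPKM and treated T24 3.18 FPKM. Untreated 5637 had 15.1 FPKM and treated 5637 9.18 FPKM. Both treated libraries lay below both untreated libraries, and the treated T24 library was the lowest. In bulk RNA, fewer cells that express a gene and less RNA per cell cannot be told apart. The difference was -1.76 on the log2(FPKM + 1) scale in T24 and -0.67 in 5637. It was the only 1 of the 10 genes at 1 or more in T24, a size (2-fold) that 0.484% of the 12193 genes compared there reached, and none of the 10 reached it in 5637, where 0.388% of 12635 genes did. At 0.5 or more it was 1 of 10 in each line, against 3.26% of genes in T24 and 2.12% in 5637. Differences as large as that of TNFRSF6B were seen for 0.115% of genes in T24 and 0.950% in 5637.

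The overlapping genes differed less with treatment. RTEL1-TNFRSF6B stood at 4.14 FPKM untreated versus 5.17 treated for T24, and 9.29 versus 8.54 for 5637. Of the FPKM of both genes, TNFRSF6B made up 76.0% in untreated T24 against 38.1% after treatment. In 5637 its share was 62.0% and 51.8%. Summed over TNFRSF6B and the read-through gene, the level was 17.3 and 8.35 FPKM in T24, a log2 difference of -0.97, and 24.4 and 17.7 FPKM in 5637, a log2 difference of -0.44. The sum was thus lower in the treated library of each line, with a smaller log2 difference than TNFRSF6B alone. RTEL1 itself measured 15.2 FPKM untreated versus 11.2 treated for T24, and 12.2 versus 10.7 for 5637. With RTEL1 added, the log2 difference of the sum was -0.70 in T24 and -0.36 in 5637. How much of the difference of TNFRSF6B comes from the division of reads between these transcripts was not tested.

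**Figure D1:**
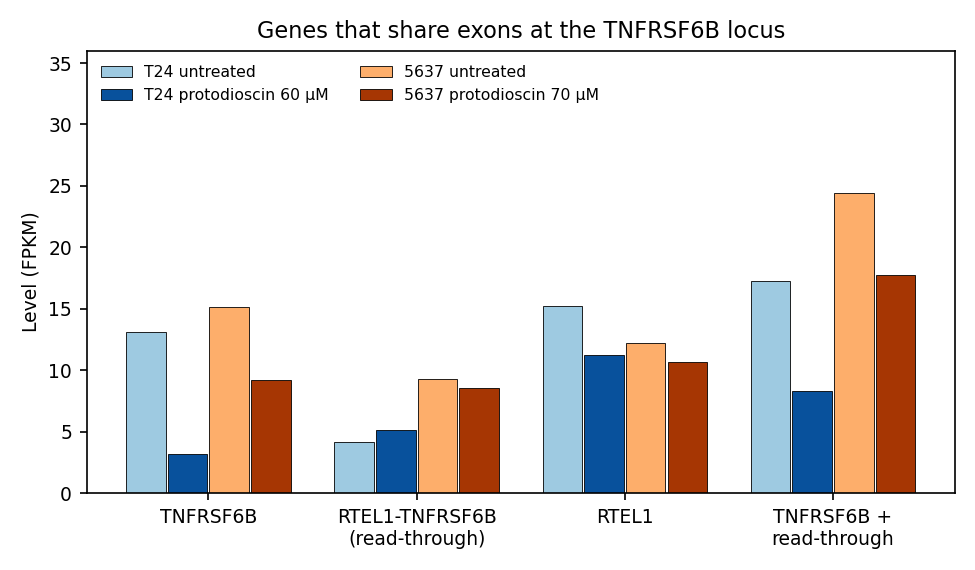
Level (FPKM, linear axis from 0) of TNFRSF6B, the read-through gene, RTEL1 and the sum of the first 2, with 1 bar for each library and no error bars since there was 1 library per group. TNFRSF6B went from 13.1 to 3.18 FPKM between the untreated and treated T24 libraries while the read-through gene was at 4.14 and 5.17 FPKM.

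Among the receptors for TRAIL, TNFRSF10A (DR4) and TNFRSF10B (DR5) carry a death domain, and TNFRSF10D is a decoy whose death domain is truncated. The 3 genes lie together on chromosome 8, TNFRSF10B at 23020133 to 23069179, TNFRSF10D at 23135588 to 23164030 and TNFRSF10A at 23190452 to 23225126, all on the minus strand. TNFRSF10A had 10.96 FPKM in untreated T24 against 8.95 after treatment, with 26.2 against 23.0 across the 5637 pair. The treated library was the lower in each line, and both 5637 libraries were above both T24 libraries. The log2 difference with treatment was -0.26 in T24 and -0.18 in 5637. Differences of that size or larger were seen for 14.7% of genes in T24 and 27.4% in 5637.

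TNFRSF10B stood at 23.5 (untreated) versus 22.8 FPKM (treated) for T24 and 34.4 versus 32.7 FPKM for 5637, with log2 differences of -0.041 and -0.070. TNFRSF10D measured 4.15 FPKM untreated versus 4.08 treated for T24, and 3.76 versus 4.04 for 5637. It was the lowest or next to lowest of the 10 genes in every library. Both T24 libraries lay above both 5637 libraries by a small margin, and the lines lay on opposite sides of 0 for it, at -0.019 and 0.082. The FPKM of TNFRSF10B was 5.65 and 5.58 times that of the decoy in untreated and treated T24, and 9.14 and 8.10 times in 5637. TNFRSF10C, the other decoy for TRAIL, was at 0.043 to 0.125 FPKM over the 4 libraries. TNFRSF11B (osteoprotegerin), a secreted receptor that also binds TRAIL, had 8.74 FPKM in untreated T24 against 6.56 after treatment, with 14.6 against 12.2 across the 5637 pair. TNFRSF10A shares 266 exon bases on the opposite strand with TNFRSF10A-DT, at 1.74 to 2.06 FPKM, and TNFRSF10B shares 67 with RHOBTB2, at 9.80 to 13.97 FPKM, and the library kit does not mark strand.

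FAS (ENSG00000026103, chromosome 10, 88990582 to 89015785, plus strand) encodes the receptor of FAS ligand. It stood at 16.6 (untreated) versus 14.7 FPKM (treated) for T24 and 3.95 versus 3.89 FPKM for 5637. Both T24 libraries lay above both 5637 libraries, and the untreated T24 level was 4.21 times the untreated 5637 level. The difference with treatment was -0.17 in T24 and -0.018 in 5637. TNFRSF10B was more abundant than FAS in all 4 libraries, at 1.41 times the FPKM of FAS in untreated T24 and 8.70 times in untreated 5637. FAS shares 380 exon bases with ACTA2 on the opposite strand, which measured 7.97 FPKM untreated versus 8.05 treated for T24, and 1.12 versus 1.55 for 5637. Reads of these bases cannot be assigned by strand, and the part of ACTA2 in the values of FAS was not tested.

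TNFRSF1A, the main receptor of TNF (chromosome 12, 6328757 to 6342114), can signal for survival or for death, through partners that include TRADD, RIPK1 and FADD. It had 66.8 FPKM in untreated T24 against 63.1 after treatment, with 63.4 against 55.1 across the 5637 pair, log2 differences of -0.081 and -0.20. The treated 5637 library was the lowest of the 4. TNFRSF12A (Fn14), the receptor of TWEAK, has no death domain and signals through TRAF proteins (chromosome 16, 3018445 to 3022383). It stood at 235 (untreated) versus 236 FPKM (treated) for T24 and 99.0 versus 106 FPKM for 5637, so the T24 libraries were the higher, and the differences with treatment were 0.0025 and 0.098. In untreated T24 it was at or above 98.6% of the genes that reached 1 FPKM, and in untreated 5637 at or above 95.9%.

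FADD (chromosome 11, 70203163 to 70207390), the adaptor, measured 31.3 FPKM untreated versus 34.3 treated for T24, and 25.7 versus 26.2 for 5637. Both T24 libraries were above both 5637 libraries, and the log2 differences with treatment were 0.13 and 0.030. CASP8 (chromosome 2, 201233443 to 201287711), the initiator caspase, had 18.1 FPKM in untreated T24 against 17.9 after treatment, with 18.8 against 17.4 across the 5637 pair. The lines overlapped, and the log2 differences were -0.014 and -0.11.

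CFLAR (chromosome 2, 201116104 to 201176687) lies upstream of CASP8 on the same strand. It stood at 6.28 (untreated) versus 4.86 FPKM (treated) for T24 and 6.37 versus 5.72 FPKM for 5637. The treated library was the lower in each line, with log2 differences of -0.31 and -0.13. Differences that large were seen for 10.1% of genes in T24 and 41.2% in 5637. The FPKM of CASP8 was 2.88 times that of CFLAR in untreated T24 and 3.68 times in treated T24, and 2.95 and 3.04 times in 5637. CFLAR has transcripts of very different lengths, which FPKM per gene does not resolve, and it shares 445 exon bases on its own strand with ENSG00000234431, which was at 0 in 3 libraries and at 0.0049 FPKM in treated T24.

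The order of the levels differed between the lines. After TNFRSF12A and TNFRSF1A, T24 had FADD, TNFRSF10B, CASP8 and FAS in that order in both libraries, with TNFRSF10D, CFLAR and TNFRSF10A below them. In 5637, TNFRSF10B came next after them, and FADD and TNFRSF10A exchanged places between the untreated library (25.7 and 26.2 FPKM) and the treated library (26.2 and 23.0 FPKM). FAS and TNFRSF10D exchanged the lowest places in 5637, so neither pair has a fixed order there.

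**Figure D2:**
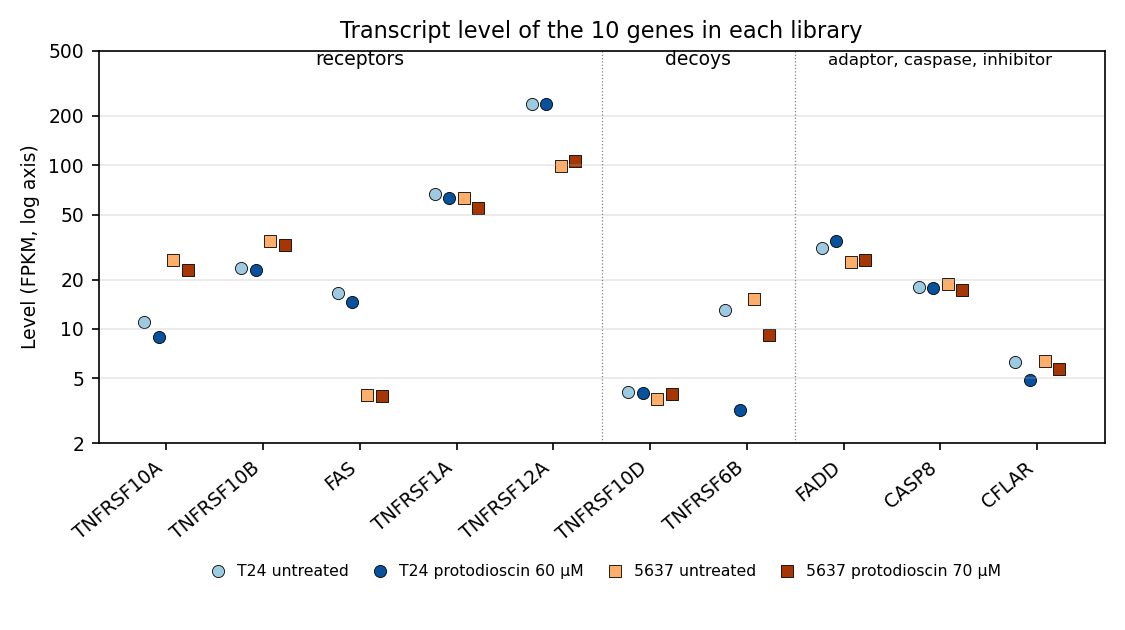
Level of the 10 genes (FPKM, log axis) with 1 point for each library, circles for T24 and squares for 5637, light for untreated and dark for treated cells. FAS and TNFRSF12A are higher in T24, TNFRSF10A and TNFRSF10B in 5637, and the treated T24 library stands apart for TNFRSF6B at 3.18 FPKM.

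Counting error was estimated from the worth of 1 read in each library and the median length of coding transcripts, at about 95 to 5884 read pairs per gene and library. The approximate 95% counting interval of the difference lay below 0 for 4 genes in T24 and for 3 in 5637. These were TNFRSF6B (-2.02 to -1.49 in T24 and -0.86 to -0.47 in 5637), TNFRSF10A (-0.44 to -0.088 and -0.30 to -0.072), CFLAR and FAS in T24 and TNFRSF1A in 5637 (-0.28 to -0.12). The interval of CFLAR in T24 was -0.55 to -0.079, and that of FAS there ended at -0.0001. It lay above 0 for FADD in T24 (0.024 to 0.23) and for TNFRSF12A in 5637 (0.020 to 0.18). The intervals of TNFRSF10B (-0.14 to 0.057 in T24 and -0.15 to 0.0062 in 5637) and CASP8 (-0.15 to 0.12 and -0.23 to 0.018) included 0. These intervals hold no variation between cultures, which was not measured, and no error from dividing reads between overlapping transcripts. TNFRSF6B shares all its exonic bases with the read-through gene. The log2 difference of their sum was -0.97 in T24 and -0.44 in 5637, outside the intervals of TNFRSF6B alone. The share of all genes with an interval below or above 0 was not computed, so the counts cannot be judged against a background.

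**Figure D3:**
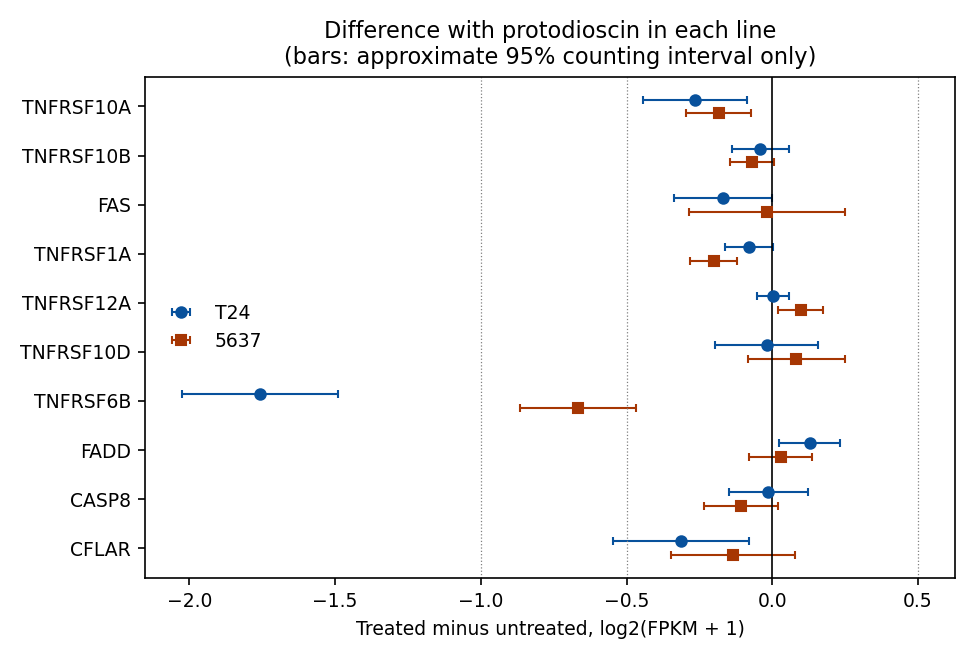
Treated minus untreated level on the log2(FPKM + 1) scale for each gene, circles for T24 and squares for 5637, with bars for the approximate 95% counting interval and dotted lines at -1, -0.5 and 0.5. TNFRSF6B lies at -1.76 in T24 and -0.67 in 5637, and the other points lie between -0.31 and 0.13.

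Of the 10 genes, 8 were below 0 in T24, where 44.0% of the genes compared were, and 7 in 5637, where 38.5% were. The 7 were also below 0 in T24, and 19.8% of the 11417 genes compared in both lines were below 0 in both. The median of the 10 differences was -0.061 in T24 and -0.089 in 5637, beside 0.025 and 0.043 for all genes compared. Without TNFRSF6B and CFLAR, which share exons on their own strand, 6 of 8 genes were below 0 in T24 (median -0.030) and 5 of 8 in 5637 (median -0.044). With median-ratio scaling, 53.5% of genes in 5637 were below 0 in place of 38.5%, the median of all genes was -0.013, and FADD lay at -0.031 in place of 0.030. TNFRSF12A in T24, at 0.0025 as deposited, was at -0.018 with that scaling.

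The treatment effect over both lines was estimated with limma, with cell line as a term and 1 residual degree of freedom, over 12893 genes. At an adjusted p below 0.05 it called 0 of the 10 genes, and 0% of all genes. The lowest adjusted p of the 10 from limma was that of TNFRSF6B, with an effect of -1.21 (SE 0.24) and an adjusted p of 0.468, lower in 2 of 2 lines. The effect of TNFRSF10A was -0.22 (SE 0.074), with an adjusted limma p of 0.496. For CFLAR it was -0.22 (SE 0.099) and for TNFRSF1A -0.14 (SE 0.064), both at an adjusted p of 0.535. At an unadjusted p below 0.05, limma had 2 of the 10, TNFRSF6B and TNFRSF10A, both lower. Of all 12893 genes, 1227 were at that level in either direction, and 508 (3.94%) were lower. A p that misses the threshold here does not show that a level was the same.

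The difference between the lines was tested in the same limma fit, with treatment as a term and no replicate libraries. It called 6 of the 10 genes at an adjusted p below 0.05, where 68.9% of all genes tested were called, so the share among the 10 was near that of the background. Effects are given as 5637 minus T24 on the log2(FPKM + 1) scale. FAS was lower in 5637 by the largest amount, at -1.76 (SE 0.090, limma adjusted p = 2.08e-05). TNFRSF12A was at -1.19 (SE 0.061, limma adjusted p = 2.05e-05) and FADD at -0.32 (SE 0.067, limma adjusted p = 0.00597), so the adaptor and both of these receptors were higher in T24.

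TNFRSF10A was higher in 5637, at 1.23 (SE 0.074, limma adjusted p = 3.76e-05), as was TNFRSF10B at 0.52 (SE 0.065, limma adjusted p = 0.0007). TNFRSF6B was called at 0.74 (SE 0.24, limma adjusted p = 0.0323). That call was lost without a filter on low values (adjusted p = 0.208), without a trend in the prior variance (0.0529) and without the treatment term (0.260), and over all settings the adjusted p was 0.0241 to 0.260. The untreated libraries alone differed by 0.19 for TNFRSF6B, less than the difference with treatment in either line. TNFRSF1A (-0.13), TNFRSF10D (-0.064), CFLAR (0.11) and CASP8 (0.0080) were not called, with adjusted limma p from 0.107 to 0.926 and SE from 0.064 to 0.10. With TPM scaling TNFRSF1A was at -0.22 with an adjusted p of 0.0361, the lowest of its settings, which reached 0.273.

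The rest of the pathway was described from 7 lists of 83 genes that hold none of the 10. Of them 68 reached 1 FPKM in T24 and 70 in 5637. In T24, 40 were above 0 and 28 below, with a median of 0.054, and in 5637, 38 were above and 32 below, with a median of 0.019. Among all genes compared, 44.0% were below 0 in T24 and 38.5% in 5637, the background for the single lists as well. Differences of 0.5 or more were seen for 1 gene upward and 3 downward in T24 and for 0 upward and 4 downward in 5637, and none reached 1. Of all genes compared, 3.26% in T24 and 2.12% in 5637 differed by 0.5 or more. limma called 0 of these genes for treatment at an adjusted p below 0.05, and had 0 to 3 genes of a list at an unadjusted p below 0.05. At that unadjusted level it had 1227 of all 12893 genes.

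Of the 10 ligand genes, 4 reached 1 FPKM in each line. TNFSF10, which encodes TRAIL, measured 2.51 FPKM untreated versus 4.002 treated for T24 (0.51), and 2.48 versus 2.38 for 5637 (-0.042). The treated T24 library was thus the highest of the 4. FASLG, the FAS ligand, was listed at 0 in all 4 libraries, and TNF was at 0.052 to 0.548 FPKM. TNFSF12 (TWEAK), the ligand of TNFRSF12A, had 6.66 FPKM in untreated T24 against 5.83 after treatment, with 1.13 against 0.723 across the 5637 pair, so ligand and receptor were both higher in T24, and TNFSF12 shares exons with a neighbour on its own strand. TNFSF15 (TL1A), a ligand of TNFRSF6B, stood at 0.018 (untreated) versus 0.012 FPKM (treated) for T24 and 2.72 versus 1.13 FPKM for 5637 (-0.81).

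Of the 12 other receptors and decoys, 6 were compared in T24 and 8 in 5637. In T24, 4 were below 0 and the list's median was -0.12, and in 5637, 7 were below 0 and the median was -0.18. TNFRSF25 (DR3), a death receptor for TL1A, measured 6.38 FPKM untreated versus 4.51 treated for T24, and 12.0 versus 10.1 for 5637, and it shares exons on its own strand. TNFRSF11B differed by -0.37 and -0.24. TNFRSF19 had 3.07 FPKM in untreated T24 against 2.47 after treatment, with 2.88 against 1.64 across the 5637 pair. EDAR, the ectodysplasin receptor, was listed at 0 in T24 and was at 1.89 and 0.977 FPKM in 5637.

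Complex I forms on TNFRSF1A and carries the ubiquitin chains that favour survival. Of its 18 listed genes, 18 were compared in T24 and 17 in 5637, with medians of 0.057 and 0.034 and 11 above 0 in each line. TNFAIP3 (A20), an NF-kB target that edits these chains, stood at 21.6 (untreated) versus 12.5 FPKM (treated) for T24 (-0.75) and 40.4 versus 33.9 FPKM for 5637 (-0.24). TRAF3 measured 13.1 FPKM untreated versus 8.02 treated for T24 (-0.65), and 9.81 versus 10.5 for 5637 (0.085). TRADD, the adaptor of TNFRSF1A, was higher in the treated library of each line, with 9.27 against 8.08 FPKM for T24 and 4.87 against 3.67 FPKM for 5637. The kinase RIPK1 had 12.0 FPKM in untreated T24 against 13.1 after treatment, with 4.89 against 5.22 across the 5637 pair, and the line effect in limma was -1.16 (SE 0.085, adjusted p = 8.01e-05).

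Among 12 other modulators of the caspase-8 complex, 6 were above 0 in T24 (median 0.023) and 10 in 5637 (median 0.11). CASP10, the close relative of CASP8, was at 1.35 to 1.60 FPKM in all 4 libraries. USP8, a deubiquitinase, stood at 7.71 (untreated) versus 10.8 FPKM (treated) for T24 (0.44) and 6.48 versus 7.81 FPKM for 5637 (0.24). The ubiquitin ligase ITCH, which acts on c-FLIP, measured 60.1 FPKM untreated versus 59.8 treated for T24, and 37.0 versus 46.8 for 5637, and DEDD2, a death effector domain protein, had 8.91 FPKM in untreated T24 against 11.3 after treatment, with 21.7 against 19.5 across the 5637 pair.

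Downstream of caspase-8, 9 of 13 effector caspase and mitochondrial genes were above 0 in each line, with medians of 0.12 and 0.068. BID, which caspase-8 cleaves to engage mitochondria, measured 10.9 FPKM untreated versus 9.41 treated for T24 (-0.19), and 19.6 versus 16.7 for 5637 (-0.22), so it was lower in the treated library of both. The mitochondrial protease HTRA2 stood at 6.40 (untreated) versus 8.27 FPKM (treated) for T24 and 11.9 versus 10.8 FPKM for 5637. Of 4 necroptosis genes 2 were compared, both below 0 in each line. MLKL, the pseudokinase that permeabilises the membrane, measured 9.42 FPKM untreated versus 9.40 treated for T24, and 10.3 versus 8.34 for 5637. PGAM5 had 19.3 FPKM in untreated T24 against 18.5 after treatment, with 25.3 against 24.8 across the 5637 pair.

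Of 14 transcription factors known to act on death receptor genes, 9 of the 13 compared in T24 were above 0 (median 0.10) and 6 of 14 in 5637 (median -0.074). DDIT3 (CHOP), an inducer of TNFRSF10B in endoplasmic reticulum stress, stood at 5.42 (untreated) versus 5.89 FPKM (treated) for T24 (0.10) and 2.37 versus 2.87 FPKM for 5637 (0.20), beside TNFRSF10B differences of -0.041 and -0.070. DDIT3 shares exons on its own strand, and a link between its level and that of TNFRSF10B was not tested. MYC had 42.8 FPKM in untreated T24 against 25.5 after treatment (-0.73), with 67.2 against 57.0 across the 5637 pair (-0.23). TP73 stood at 7.90 (untreated) versus 10.4 FPKM (treated) for T24 and 5.91 versus 6.57 FPKM for 5637. TP63 was at 0.023 FPKM or less in T24 and at 27.9 FPKM untreated and 19.2 FPKM treated in 5637 (-0.51).

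**Figure D4:**
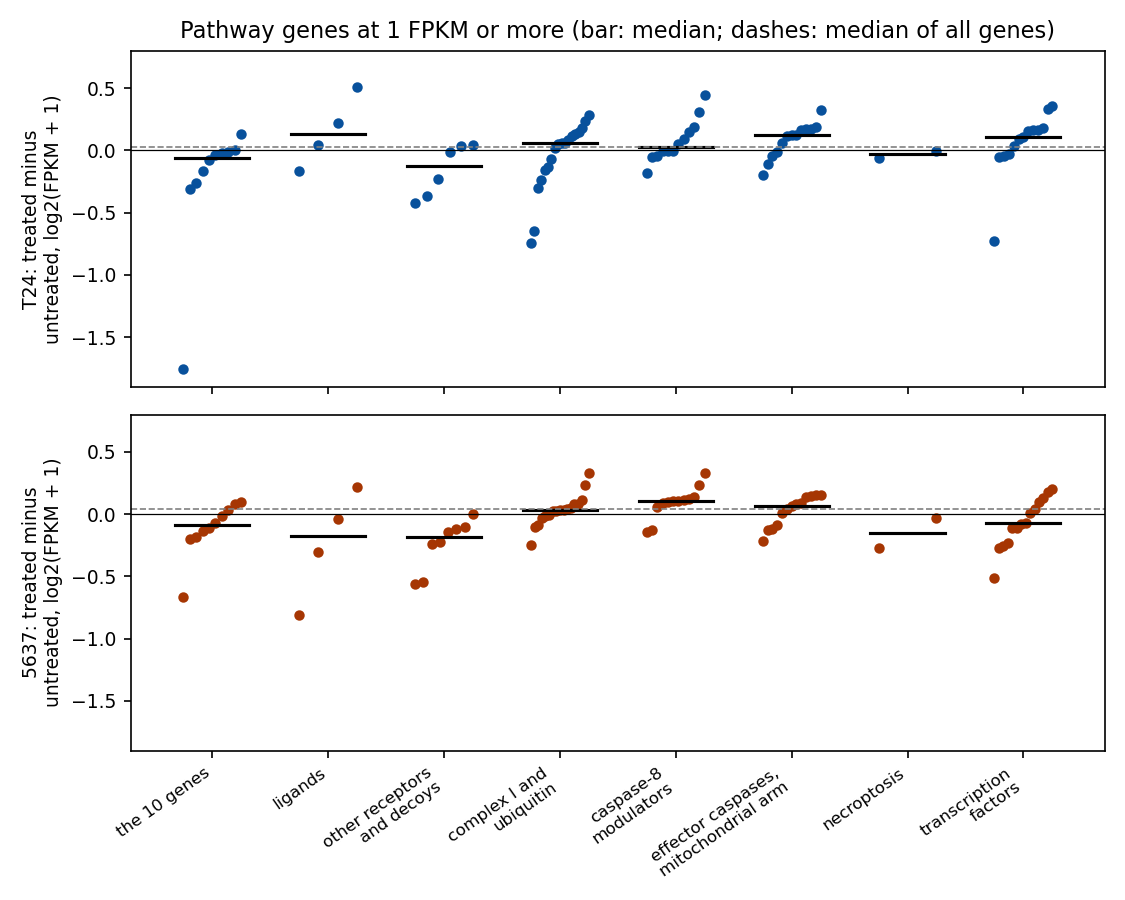
Treated minus untreated level on the log2(FPKM + 1) scale for the 10 genes and the 7 lists of other pathway genes, T24 above and 5637 below, with 1 point for each gene at 1 FPKM or more. Black bars mark the median of a list and the dashed line the median of all genes compared, at 0.025 in T24 and 0.043 in 5637.

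TNFRSF10A had the largest mean difference of the 8 genes without same-strand exon sharing. The 3 protein-coding genes nearest to it over the 4 log2 levels, of 16523 searched by Euclidean distance, were WNT7B at 0.23, ENC1 at 0.24 and SMURF1 at 0.26. ENC1 measured 11.2 FPKM untreated versus 8.09 treated for T24, and 27.7 versus 26.3 for 5637. WNT7B was lower in treated T24 (11.1 and 8.78 FPKM) but not in treated 5637 (25.6 and 27.1 FPKM).

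Depth and cell identity were checked from the table itself. The spacing of low values gave relative depths of 1.28 for treated T24, 1.43 for untreated 5637 and 1.19 for treated 5637, against untreated T24. All 9 epithelial markers were at 1 FPKM or more in 5637 and 5 of 9 in T24, where KRT5 was listed at 0 and CDH1 was at 0.016 FPKM or less, while KRT8, KRT18, KRT17, EPCAM and GATA3 were at 2.09 FPKM or more. The summed level of 6 mesenchymal markers was 1597 to 1722 FPKM in T24 and 507 to 595 FPKM in 5637. FN1 made up most of the T24 sum, while VIM and TWIST1 were higher in 5637. The summed level of 5 immune markers was 0.147 to 0.927 FPKM, that of 3 endothelial markers 0.029 to 1.98 FPKM and that of 4 fibroblast markers 1.08 to 7.99 FPKM, mostly COL1A1 in 5637. The labels do not say whether libraries came from separate cultures. In the fit with both terms, the spread behind a p-value was how far treatment differences in T24 and 5637 lay apart. limma drew this spread toward a prior variance taken from all genes tested. Technical variation, variation between cultures and the unlike doses cannot be separated in it, and it is no replicate error.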

How the data were processed

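The authors deposited FPKM per gene for 4 libraries, 1 for each line and treatment. Per the submitters' processing notes, Trimmomatic, HISAT2, StringTie and GRCh38 were used, with settings and annotation release not given in the sources used here. Per the labels' protocols, TruSeq RNA v2 libraries, which select polyadenylated RNA and carry no strand mark, were read as pairs of 150 bases. StringTie estimates how reads split over transcripts that overlap. Sums of FPKM were 322821 to 348577. Read totals were not used here. Whole reads could not be recovered from FPKM, and no count model was used.

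The scale was log2(FPKM + 1), which understates the change of low genes. Within a line, genes that reached 1 FPKM in either library were compared by size (0.5 or 1), with no test. limma 3.58.1 (R 4.3.3) had terms for line and treatment, a trend in the prior variance and genes that reached 1 FPKM in 2 or more libraries. Benjamini-Hochberg adjustment was over all of them. The fit was also run on simulated data with the same change in both lines and noise from the prior variance alone. That run cannot show how the fit does where the lines respond unlike, and nothing is drawn from it here. Promoter windows on chromosome 8 were not used here. Exon sharing came from GENCODE 29 with bedtools 2.31.1. Read pairs per gene were approximated from the worth of 1 read (0.0171 to 0.0246 FPKM on 1 kb). The genes and lists were chosen with earlier results of these data known. Besides the 10 genes, the text names up to 3 genes of each list with the largest difference in either line, and ligands, receptors, partners and regulators fixed by name, some of which are not reported here. ENSG00000234431, ACTA2, ARFRP1, RHOBTB2, TNFRSF10A-DT, RTEL1 and RTEL1-TNFRSF6B are named as exon neighbours. Opposite-strand neighbours of CFLAR, FADD and TNFRSF12A were at 0.319 FPKM or less. Alternatives covered the pseudocount, the filter, the scaling, exon sharing and the terms of the fit.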

Additional observations from a re-analysis of the deposited data

Results flagged for a closer look

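The lines lay on opposite sides of 0 for 1 of the 10 genes and for 5 of the named pathway genes, with 1 pair of libraries in each line, and these differences were not tested. The share of all genes on opposite sides was not computed. The count depends on the scaling. With median-ratio scaling, FADD (0.11 in T24 and -0.031 in 5637) and TNFRSF12A (-0.018 and 0.035) lay on opposite sides too. Given as the 5637 difference minus the T24 difference on the log2 scale, the decoy TNFRSF10D was at 0.10. Its counting interval included 0 in each line (-0.19 to 0.16 in T24 and -0.084 to 0.25 in 5637). TRAF3 was at 0.73, with -0.65 in T24 and 0.085 in 5637, and ITCH was at 0.34. TNFSF10, the gene of TRAIL, was at -0.55, with 0.51 in T24 and -0.042 in 5637. DEDD2 was at -0.45 and HTRA2 at -0.45.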

How the results depend on the processing

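Of the 10 genes, limma called 0 for treatment in each fit that tested them. Not tested were TNFRSF10D with a filter at 5 FPKM and TNFRSF6B and CFLAR where genes that share exons were dropped. The effect of TNFRSF10D, 0.032 as reported, was -0.0017 with median-ratio and -0.0016 with quantile scaling, and the line effect of CASP8, 0.0080 as reported, was -0.073 with TPM scaling. limma called 0 of all genes for treatment, and 2 with a pseudocount of 0.1 and 2 after leaving out genes with same-strand exon sharing. Genes at 1 or more on the log2 scale numbered 59 in T24 and 49 in 5637, against 156 and 121 with a pseudocount of 0.1, 17 and 10 with a pseudocount of 5, 34 and 17 with a filter at 5 FPKM, 110 and 85 with TPM scaling, and 15 and 16 without genes that share exons. In that last setting 0 of the 8 genes left reached 0.5 in either line, since TNFRSF6B is not among them. Of the levels at the TNFRSF6B locus, -1.76 in T24 was -0.97 with the read-through gene added and -0.70 with RTEL1 added as well, and -0.67 in 5637 was -0.44 and -0.36. TNFRSF6B in T24 was at -1.15 with a pseudocount of 5. The other 152 values, each of 1 gene in 1 line under 1 alternative setting, moved by less than the counting interval. Some of these changed sign, such as FADD in 5637 (-0.031) and TNFRSF12A in T24 (-0.018) with median-ratio scaling. Each group held 1 library and the labels give no replicate numbers, so the only pairing was by cell line, through the line term of the fit. Counting limits the differences of FAS in 5637 and of treated TNFRSF6B in T24 most, at about 130 and 95 read pairs.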
